A study of Drosophila melanogaster with 5 samples.

Results

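The genes described here are 42 genes that the authors' table of the fly genome lists only under a CG number. This is the running identifier given to a predicted gene before it has a name. Their RNA was lower after a wave of dividing spermatogonia in the testis had been switched towards spermatocytes. The 42 were taken from 5378 genes with a CG number in a table of 17528 features (14819 genes, the rest mostly transposon insertions). The rule was that both early libraries (no heat shock, no HS, and 8 h post heat shock, PHS) lay above both late libraries (24 and 32 h PHS) by more than 1.5-fold, on the scale log2(CPM + 1), and that the gene reached at least 10 CPM in no HS. CPM is the read count of a gene scaled to a common library size, in the standard unit of counts per 1000000 reads, here after normalization between libraries by the authors. Of the 1949 CG genes that reached this level, 42 met the rule, which is 2.15%. Of all 6580 features at that level 203 did so, or 3.09%. The genes were thus chosen by their no HS, 8, 24 and 32 h values, which are given as a description, while the 16 h library was not used in the choice.

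All 5 libraries came from hs-Bam; bam[1]/bam[86] males, which lack functional bam and carry a bam transgene under a heat shock promoter. Pupae of these flies were held at 37 °C for 30 min and returned to 25 °C, and testes with seminal vesicles were taken at 8, 16, 24 or 32 h PHS, whereas the no HS males were not heated. Each library was polyA RNA pooled from about 100 pairs of testes, and there was 1 library per time, so that differences could not be set against replicates, and p-values are left out. The pupae received the heat shock and the Bam pulse together, and heated testes without hs-Bam were not analysed here, so that the action of heat and that of Bam cannot be told apart in these values.

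Spermatogonia are the dividing cells that germ line stem cells produce. They pass through a set number of divisions, stop when the Bam protein has built up, complete a last round of DNA replication and become spermatocytes, which grow and prepare for meiosis. In bam mutants the spermatogonia go on dividing, and a pulse of Bam lets a wave of them enter the spermatocyte state together. In whole testes fewer cells of a type and less RNA per cell cannot be told apart.

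The libraries held between 10356663 (no HS) and 28766676 (24 h) reads on features, so that 1 CPM was worth 10.3 reads in no HS and at least 21.1 reads in every later library. The 42 genes had between 105 and 2182 reads in no HS, with a median of 291.5. Intervals given here are 95% Clopper-Pearson intervals for the ratio of 2 libraries. They compare those libraries and hold the error of counting alone, and reads copied by PCR are not separate molecules. The bam gene was at 64.7 CPM without heat shock and 128.1, 90.4, 74.2 and 60.5 CPM at 8, 16, 24 and 32 h PHS. Across the lists of marker genes, the summed level of 15 spermatocyte genes (all 15 found) was 216.1 CPM in no HS. The sum was 205.4, 163.1, 380.1 and 1099 CPM at 8, 16, 24 and 32 h PHS. Of these genes, 2 were at 0 reads in at least one library. At 32 h the highest were Rbp4, fest and Taf12L, at 399.6, 288.7 and 113 CPM. The genes twe, bol and mia were lower at 32 h than in no HS and the others higher. The level of twe was 51.5 CPM in no HS and 21.9 CPM at 32 h, and twe met the rule. The 7 cyst cell genes, markers of the somatic cells that enclose the germ cells, summed to between 236.7 and 287 CPM. The 10 muscle genes of the testis sheath summed to 1580 CPM without heat shock and 1747, 1985, 2043 and 1995 CPM at 8, 16, 24 and 32 h PHS. The midgut list was at 173.6 CPM in no HS and between 69.1 and 96.8 CPM afterwards, with 4 of its 6 genes at 0 reads in at least one library. Fat body genes lay between 28.0 and 33.2 CPM, blood cell genes between 95.4 and 118.7 CPM, ejaculatory duct and bulb genes (3 of 6 found) between 80.3 and 121 CPM, and accessory gland genes (6 of 8 found) at or under 2.24 CPM, 4 of the last at 0 reads in at least one library. No marker that was found was at 0 reads in all 5 libraries. The heat shock list (9 of 10 found) was between 7577 CPM at 16 h and 11785 CPM at 8 h, against 8381 in no HS. The part of these shifts in the values below was not tested, and whole testes do not show in which cells the RNA of the 42 genes lay.

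For 2 of the 42 genes the later annotation BDGP6.54 gives a name, so that the label uncharacterised holds for the name in the authors' table only. CG14905 is there Ccdc114, after the human coiled-coil gene whose protein helps to anchor outer dynein arms in motile cilia, and CG2556 is mdu. RefSeq lists further synonyms for some of the others. For CG4860 these are ACAD11 and ACADS, names of human acyl-CoA dehydrogenases, enzymes of fatty acid breakdown. CG10939 carries Sip1, CG8399 carries sdr2 and CG6927 carries Lcch-4D. No function is given here for the remaining genes. All 42 are annotated as protein coding.

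The levels of all 42 genes relative to no HS are shown in the heat map by library. The median gene stood at 92.5%, 63.9%, 45.3% and 43.3% of its no HS level in the 8, 16, 24 and 32 h libraries. At 8 h the genes ranged from 59.8% to 125.3%, at 16 h from 37.1% to 101.1%, at 24 h from 18.8% to 64.6%, and at 32 h from 17.0% to 62.8%. By the 2-fold line on the log2(CPM + 1) scale, 22 of the 42 were lower at 24 h and 31 at 32 h, where 1.72% and 2.4% of all features with at least 10 CPM in no HS were. The rule used these contrasts, so that the counts describe the choice.

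**Figure D1:**
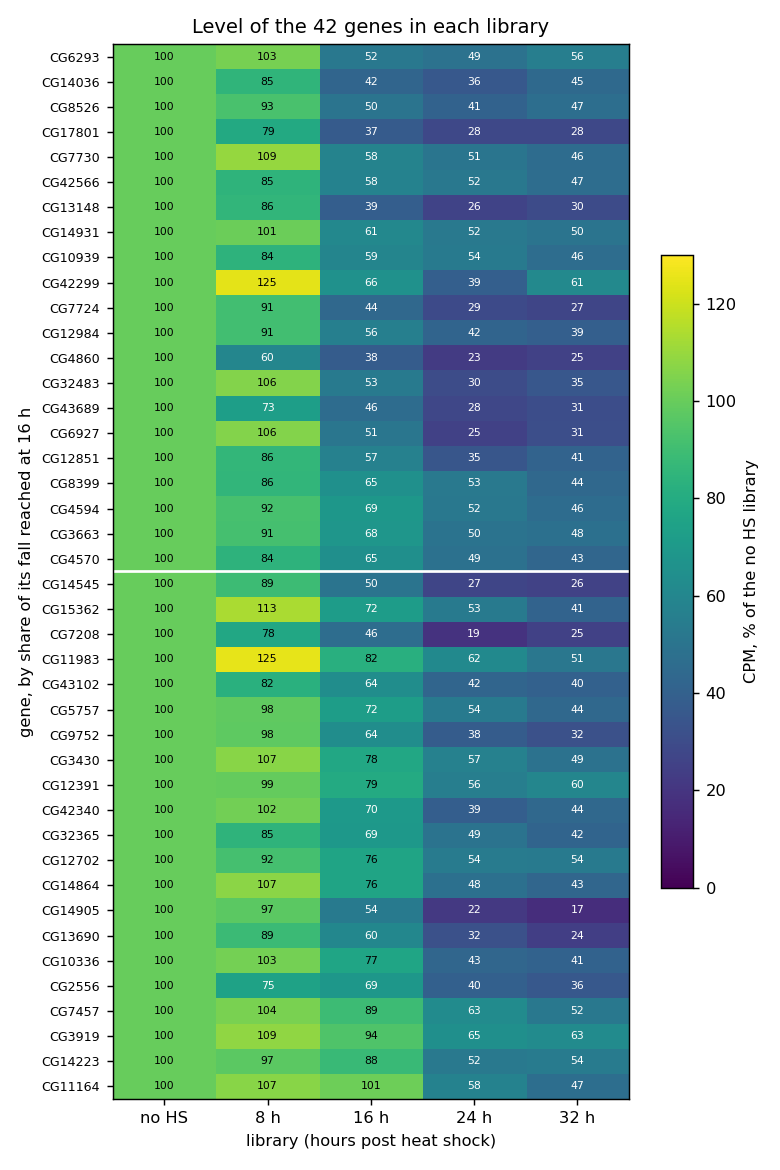
Level of each of the 42 genes (rows) in each library (columns), as CPM in % of its no HS library, with the value printed in each cell and shown by color. Rows are ordered by the share of the fall that was reached at 16 h, and the white line parts the 21 genes at 50% or more (above) from the 21 below 50%.

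The largest fall was that of CG14905 (Ccdc114; FBgn0038452, chromosome 3R from 16622735 to 16624717 on BDGP6.54). It was at 30.3 CPM in no HS, then 29.5, 16.3, 6.51 and 5.15 CPM across 8, 16, 24 and 32 h PHS. Its level at 24 h was 21.5% of no HS (interval 17.8% to 25.9%) and that at 32 h was 17.0% of no HS (interval 13.7% to 21.0%). It was the only one of the 42 past 4-fold by the rule, and CG14545 was the only other past 3-fold. CG14545 (FBgn0040602, chromosome 3R from 25850410 to 25851291), which encodes a protein of 144 residues, was at 74.9 (no HS), 66.6 (8 h), 37.6 (16 h), 20.2 (24 h) and 19.2 CPM (32 h). At 24 h this was 27.0% of no HS (interval 24.2% to 30.2%). In both genes the drops from 8 to 16 h and from 16 to 24 h were the largest. CG14545 was also lower at 8 h than in no HS, and CG14905 at 32 h than at 24 h, past the counting interval.

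A further 13 genes were past 2-fold by the rule. CG7724 (FBgn0036698, chromosome 3L from 17055613 to 17058533) was at 22.6 CPM without heat shock and 20.5, 9.97, 6.55 and 6.12 CPM at 8, 16, 24 and 32 h PHS. CG13690 (FBgn0031252, chromosome 2L from 418434 to 419652), with a single exon, was at 74.5 CPM in no HS, then 66.0, 44.7, 24.2 and 18.0 CPM across 8, 16, 24 and 32 h PHS. Its 24 h level was 32.4% of no HS (interval 29.2% to 36.0%) and it was lower again at 32 h. CG10336 (FBgn0032698, chromosome 2L from 18689528 to 18690906) was at 69.0 (no HS), 70.8 (8 h), 52.9 (16 h), 29.6 (24 h) and 28.2 CPM (32 h), so that it kept its level at 8 h and had its largest drop between 16 and 24 h. CG9752 (FBgn0034614, chromosome 2R from 21294402 to 21295588) had a course like that of CG10336, at 31.5 CPM without heat shock and 30.9, 20.1, 11.9 and 10.2 CPM at 8, 16, 24 and 32 h PHS. CG42340 spans 101201 bp of the X chromosome (6423123 to 6524323) and was at 39.8 CPM in no HS, then 40.7, 28.0, 15.4 and 17.5 CPM across 8, 16, 24 and 32 h PHS. The levels at 24 and 32 h lay within the counting error of each other.

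CG4860, the gene with the acyl-CoA dehydrogenase synonyms (FBgn0037999, chromosome 3R from 12219881 to 12221464), was the only one of the 42 that was lower by more than 1.5-fold already at 8 h, where 0.714% of all features with at least 10 CPM in no HS were. It was at 52.6 (no HS), 31.4 (8 h), 19.9 (16 h), 11.98 (24 h) and 13.1 CPM (32 h). The 8 h level was 59.8% of no HS (interval 53.6% to 66.7%) and the 24 h level 22.8% of no HS (interval 19.8% to 26.1%). An annotated antisense RNA gene shares 20.7% of its exonic bases. The authors' table has no values for that RNA gene, so its level cannot be given. CG43689 (FBgn0263772, chromosome X from 4075743 to 4092237) had the next lowest share at 8 h, with 72.7% of no HS (interval 64.7% to 81.7%). Its values were 43.1 CPM without heat shock and 31.4, 19.9, 11.9 and 13.3 CPM at 8, 16, 24 and 32 h PHS.

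Several genes of the strongest group were at low levels, with under 20 CPM in no HS. CG6927 (FBgn0029733, chromosome X from 4906900 to 4908821) was at 12.5 CPM in no HS, then 13.2, 6.36, 3.15 and 3.88 CPM across 8, 16, 24 and 32 h PHS. CG7208 (FBgn0038575, chromosome 3R from 18183656 to 18185715) reached the lowest share at 24 h of all 42, 18.8% of no HS (interval 14.39% to 24.5%), with 16.4 (no HS), 12.8 (8 h), 7.59 (16 h), 3.08 (24 h) and 4.14 CPM (32 h). The exons of CG7208 overlap those of Arp5 on the other strand over 10.4% of their length, and Arp5 stayed between 56.4 and 57.7 CPM in all 5 libraries. CG32483 (FBgn0052483, chromosome 3L from 688523 to 690081) was at 13.8 CPM without heat shock and 14.6, 7.36, 4.17 and 4.90 CPM at 8, 16, 24 and 32 h PHS. Like CG6927, it was not lower at 8 h than in no HS. CG13148 was at 12.4 CPM in no HS, then 10.6, 4.79, 3.26 and 3.67 CPM across 8, 16, 24 and 32 h PHS. CG17801 was at 13.4 (no HS), 10.6 (8 h), 4.98 (16 h), 3.82 (24 h) and 3.76 CPM (32 h). In each of these 5 genes the levels at 24 and 32 h lay within the counting error of each other. CG12851 (FBgn0035086, chromosome 2R from 24948645 to 24955677), which encodes a protein of 1081 residues and is more abundant, completes the group past 2-fold at 37.0 CPM without heat shock and 31.8, 21.1, 13.0 and 15.2 CPM at 8, 16, 24 and 32 h PHS.

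**Figure D2:**
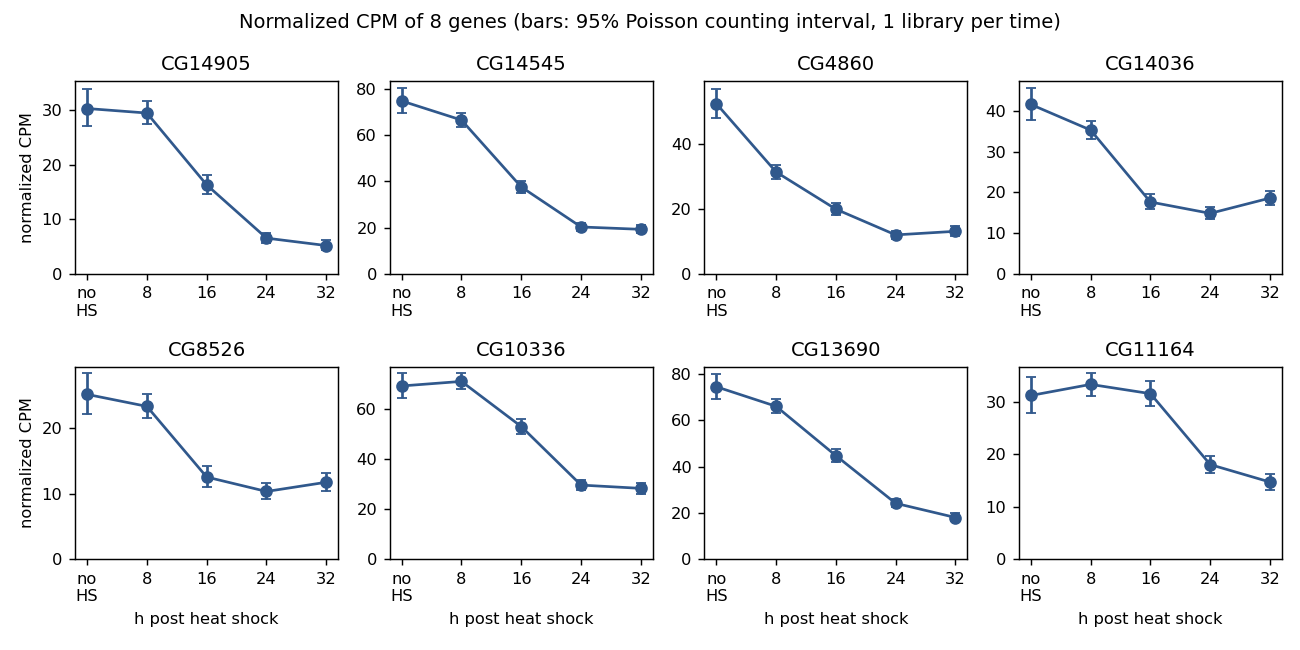
Normalized CPM of 8 of the genes in the 5 libraries, no HS and 8 to 32 h post heat shock. Points are single libraries and bars are 95% Poisson intervals for counting error only. CG4860 was lower already at 8 h (31.4 against 52.6 CPM), CG14036 and CG8526 were near their late level at 16 h, and CG11164 was still at 31.6 CPM at 16 h.

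The most abundant of the 42 genes in no HS was CG4570 (FBgn0037844, chromosome 3R from 10856807 to 10858066), a gene with 1 exon, at 212 CPM in no HS, then 179, 137, 103 and 90.9 CPM across 8, 16, 24 and 32 h PHS. Per length it was also the highest, at 168.6 CPM per kb of exon in no HS, against a median of 13.4 and a lowest value of 2.20 CPM per kb for CG43102. CG12702 (FBgn0031070, chromosome X from 19759173 to 19764874) was at 124 (no HS), 113 (8 h), 93.7 (16 h), 66.9 (24 h) and 66.4 CPM (32 h). CG12391 (FBgn0033581, chromosome 2R from 11147602 to 11150068) was at 119 CPM without heat shock and 118, 94.4, 66.4 and 70.8 CPM at 8, 16, 24 and 32 h PHS. These 3 were the only ones over 100 CPM in no HS, and none of them dropped by 2-fold under the rule. CG3430 (FBgn0031875, chromosome 2L from 6957008 to 6959104) was at 72.3 CPM in no HS, then 77.5, 56.5, 41.4 and 35.6 CPM across 8, 16, 24 and 32 h PHS, and its level at 24 h was 57.2% of no HS (interval 52.1% to 62.7%). CG10939 (Sip1; FBgn0010620, chromosome 2R from 17394593 to 17405171) was at 69.8 (no HS), 58.8 (8 h), 41.5 (16 h), 37.4 (24 h) and 32.3 CPM (32 h). In all, 9 genes were over 50 CPM in no HS and 17 were under 20 CPM.

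To describe whether a gene fell early or late, the 16 h value was set on a scale from the mean of no HS and 8 h (0%) to the mean of 24 and 32 h (100%), in log2(CPM + 1). The fall was called early where at least 50% of it had been reached at 16 h. Genes whose fall was complete at 8 h cannot be among the 42, since the rule takes the lower of no HS and 8 h. The 42 genes were split evenly by this measure, 21 early and 21 late, with a median of 50.1% and quartiles of 40.9% and 63.8%. The shares ran from 3.21% (CG11164) to 100.7% (CG6293), and 20 of the 42 lay between 40% and 60%, close to the line that parts early from late. At 16 h 17 of the 42 were below the smaller of no HS and 8 h by more than 1.5-fold, where 1.17% of all features with at least 10 CPM in no HS and 20.5% of the other genes that meet the rule were. This comparison shares the no HS and 8 h libraries with the rule. The level at 16 h was below that at 8 h past the counting interval in 39 of the 42, against 29.6% of all features at that level, and above it in 0, against 25.8%. It was below in 158 of the 161 other genes that meet the rule. The rule chose all these genes for a high 8 h value and low late values. That choice favours a 16 h level below the 8 h level, so that these counts describe it in part. The largest single step was from 8 to 16 h in 20 genes, from 16 to 24 h in 21, and from no HS to 8 h in CG4860. Among the 161 other genes it was from 8 to 16 h in 51 and from 16 to 24 h in 105. It was from 24 to 32 h in 3 of them and from no HS to 8 h in 2.

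Early falls were at 70% or more in 9 genes. CG6293 (FBgn0037807, chromosome 3R from 10307806 to 10311613) had reached its late level at 16 h, with 11.4 CPM without heat shock and 11.8, 5.93, 5.60 and 6.33 CPM at 8, 16, 24 and 32 h PHS. Nuak, on the other strand, shares 25.5% of the exonic bases of CG6293 and was at 155.6 CPM in no HS and 107 at 24 h. CG14036 (FBgn0031677, chromosome 2L from 5054579 to 5055016), a single exon of 438 bp that encodes 93 residues, was at 41.6 CPM in no HS, then 35.3, 17.6, 14.8 and 18.6 CPM across 8, 16, 24 and 32 h PHS, and had a share of 93.0%. CG8526 (FBgn0037759, chromosome 3R from 9801280 to 9803461) was at 25.1 (no HS), 23.3 (8 h), 12.5 (16 h), 10.3 (24 h) and 11.7 CPM (32 h), a share of 84.0%. In CG6293 and CG14036 the 16 h level lay between those at 24 and 32 h, while in the other 40 genes it lay above both.
CG7730 (FBgn0036689, chromosome 3L from 17027515 to 17029814) was at 13.5 CPM without heat shock and 14.8, 7.88, 6.86 and 6.21 CPM at 8, 16, 24 and 32 h PHS. CG14931 (FBgn0032374, chromosome 2L from 11788334 to 11789475) was at 44.9 CPM in no HS, then 45.2, 27.3, 23.5 and 22.5 CPM across 8, 16, 24 and 32 h PHS. CG42566, which encodes the shortest protein of the 42 (76 residues), was at 17.2 (no HS), 14.6 (8 h), 9.97 (16 h), 8.96 (24 h) and 8.02 CPM (32 h). In these 3 and in CG13148, CG17801 and CG10939 the share at 16 h was between 71.3% and 77.6%. The level at 24 h was below that at 16 h past the counting interval in 38 of the 42, against 28.4% of all features at this level and 154 of the 161 other genes that meet the rule. The rule chose the genes for a low 24 h value, so that this count describes the choice. For CG17801, CG7730, CG6293 and CG42566 the 24 h level could not be told from that at 16 h at this depth.
The other early genes were closer to the middle. CG12984 was at 11.3 CPM without heat shock and 10.3, 6.36, 4.73 and 4.43 CPM at 8, 16, 24 and 32 h PHS, but skd on the other strand, at 484.6 CPM in no HS and 454 at 24 h, shares 12.9% of its exonic bases. CG8399 was at 30.0 CPM in no HS, then 25.7, 19.6, 15.8 and 13.2 CPM across 8, 16, 24 and 32 h PHS. CG3663 was at 15.9 (no HS), 14.5 (8 h), 10.9 (16 h), 7.88 (24 h) and 7.64 CPM (32 h). These genes, with CG4594, CG4570 and the genes CG7724, CG4860, CG32483, CG43689, CG6927, CG12851 and CG42299, had shares from 50.4% to 65.2%.

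Late falls were under 30% at 16 h in 5 genes. CG11164 (FBgn0030507, chromosome X from 13668014 to 13669573) was the latest, with 31.3 CPM without heat shock and 33.4, 31.6, 18.1 and 14.7 CPM at 8, 16, 24 and 32 h PHS, and its 16 h level was 101% of no HS (interval 88.4% to 116%). CG14223 (FBgn0031053, chromosome X from 19659442 to 19663971) was at 20.5 CPM in no HS, then 20.0, 18.1, 10.8 and 11.1 CPM across 8, 16, 24 and 32 h PHS, and at 16 h it was 88.0% of no HS (interval 74.2% to 105%). Both were thus still at a level at 16 h that could not be told from no HS at this depth, and both had dropped at 24 h, to 57.8% of no HS (interval 50.2% to 66.7%) and 52.3% of no HS (interval 43.8% to 62.7%). CG3919 was at 19.1 (no HS), 20.7 (8 h), 18.0 (16 h), 12.3 (24 h) and 11.99 CPM (32 h) and CG7457 at 45.5 CPM without heat shock and 47.3, 40.5, 28.5 and 23.7 CPM at 8, 16, 24 and 32 h PHS. CG2556 (mdu) was lower at 8 h, at 74.7% of no HS (interval 61.4% to 91.2%), held that level at 16 h and then dropped, with 15.3 CPM in no HS, then 11.4, 10.5, 6.09 and 5.45 CPM across 8, 16, 24 and 32 h PHS.
CG14864 was at 11.5 (no HS), 12.3 (8 h), 8.73 (16 h), 5.50 (24 h) and 4.94 CPM (32 h), with a share of 38.6%. CG32365 was at 36.6 CPM without heat shock and 31.0, 25.3, 18.1 and 15.3 CPM at 8, 16, 24 and 32 h PHS, with 40.8%. CG43102, which encodes the longest protein of the 42 (2519 residues), was at 26.8 CPM in no HS, then 22.1, 17.1, 11.3 and 10.8 CPM across 8, 16, 24 and 32 h PHS. All 3 had the largest step between 16 and 24 h. CG5757 (FBgn0034299, chromosome 2R from 18093723 to 18094900) was at 38.2 (no HS), 37.5 (8 h), 27.6 (16 h), 20.5 (24 h) and 16.7 CPM (32 h). CG15362 was at 13.8 CPM without heat shock and 15.7, 9.92, 7.39 and 5.70 CPM at 8, 16, 24 and 32 h PHS. Both kept dropping from 24 to 32 h.

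Early and late genes overlapped in how far they dropped. The median level at 24 h was 41.1% of no HS in the 21 early genes and 49.5% in the 21 late ones, and at 32 h it was 44.1% and 43.0%. Among the 15 genes past 2-fold 8 were early, and among the 27 others 13 were. Of the 9 genes over 50 CPM in no HS 3 were early, and of the 17 under 20 CPM 11 were. At 8 h the level was below no HS past the counting interval in 15 genes (35.7%), against 22.3% of all features with at least 10 CPM in no HS. It was above in 2, CG42299 and CG11983, against 23.8%. Of the 161 other genes that meet the rule, 37.9% were below at 8 h and 14.3% above. The rule used both libraries of that comparison.

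Between 24 and 32 h, both of which the rule had used, the genes stayed low. None moved by 1.5-fold on the log2(CPM + 1) scale, against 0.562% of all features at this level that were lower by that much and 0.836% that were higher. Past the counting interval 11 were lower at 32 h than at 24 h, against 34.5% of all features and 54% of the other genes that meet the rule. Higher were 3 (7.14%), against 25.1% of all features and 7.45% of those other genes. In 28 the interval held the 24 h level. The 3 that were higher were CG12851, CG14036 and CG42299. CG42299 (FBgn0259195, chromosome X from 15574947 to 15575683) had the highest level at 32 h relative to 24 h, with 15.8 CPM in no HS, then 19.7, 10.4, 6.20 and 9.67 CPM across 8, 16, 24 and 32 h PHS. At 32 h this was 156% of its 24 h CPM (interval 127.6% to 190.9%), a ratio that the added 1 CPM brings under 1.5-fold on the log2 scale. Among the 11 that went on dropping, CG13690 had the lowest ratio, 74.6% of its 24 h level (66.0% to 84.3%).

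The same rule was met by 161 other genes, all of them annotated under gene IDs, and these give the timing of the 42 a background. All 13 genes of a DNA replication list met it (PCNA, the sliding clamp, the Mcm2 to Mcm7 helicase subunits with dpa as Mcm4, RnrS and RnrL, which make deoxynucleotides, Orc1, Orc6, dup and CycE). So did 6 of the 14 genes found of a mitosis list, namely CycB, stg, aurA, Incenp, fzy and feo, and 6 of 16 genes of an early germ cell list, namely otu, piwi, zpg, stet, BigH1 and Pxt. In 8 of the other 10 early germ cell genes, the lower early library did not exceed the higher late one. The median of this difference over the list was -0.05 on the log2 scale. Of the 8, how was at 226.5 CPM in no HS and 105.8 CPM at 8 h, and bgcn at 313.9 and 197 CPM. Both stayed below no HS in every later library. The gene mei-P26 was also lower at 8 h than in no HS, while bam, vas, tut, aub and AGO3 were higher. A gene whose fall was complete at 8 h cannot meet the rule, which takes the lower early library. These lists were drawn up with results on these samples known and are no independent evidence of direction. Of the 161, 52 (32.3%) were early, with a median share at 16 h of 40.3% and quartiles of 30.2% and 57.5%, against 21 of 42 (50%) and 50.1%. The 161 were not matched to the 42 by level. Within the 42, early genes were 3 of the 9 over 50 CPM in no HS and 11 of the 17 under 20 CPM. The part of level in the difference from the 161 was not tested. Of the replication genes 12 were late, with a median share of 27.5%, from 20.9% for Mcm3 to 61.4% for Orc6. PCNA, for example, was at 503.6 CPM without heat shock and 487.9, 356.9, 204 and 178.5 CPM at 8, 16, 24 and 32 h PHS. The 6 genes of mitosis had a median of 23.9%, and aurA alone was early among them, at 50.4%. The 6 early germ cell genes that meet the rule had a median of 62.7%, with zpg and Pxt under 50%. The gene stet, which encodes a protease that acts in germ cells, was at 66.9 CPM without heat shock and 46.0, 22.6, 12.5 and 12.6 CPM at 8, 16, 24 and 32 h PHS. Of the 42 CG genes, CG11164, CG14223, CG3919 and CG7457 lay under the median of the replication list, which is a description and not a test of any relation.

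**Figure D3:**
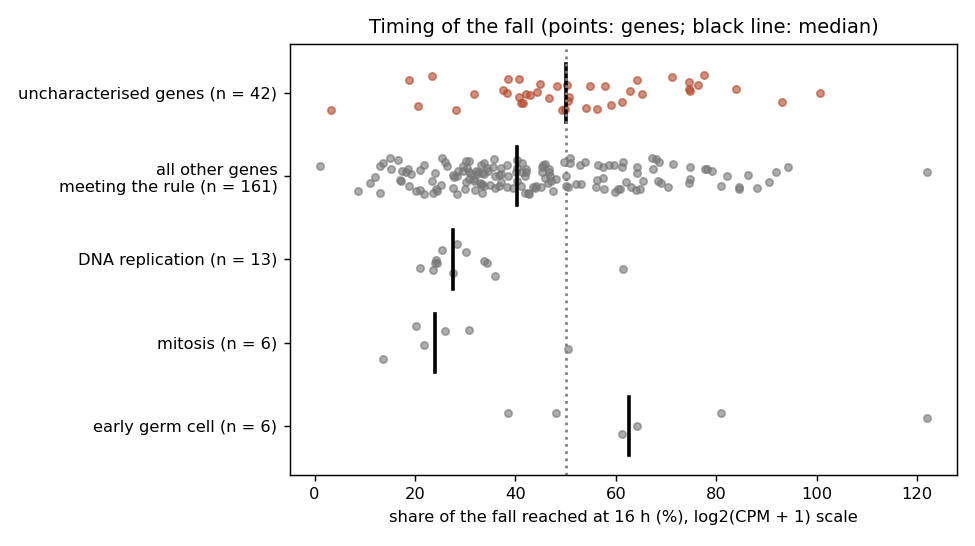
Share of the fall that was reached at 16 h (x axis, %, on the log2(CPM + 1) scale) for the 42 uncharacterised genes, the 161 other genes that meet the rule, and the members of 3 lists among those 161. Each point is a gene, the black line is the median and the dotted line marks 50%. The medians are 50.1%, 40.3%, 27.5% for DNA replication, 23.9% for mitosis and 62.7% for early germ cell genes.

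The 42 genes lie on all major chromosome arms, with 8 on X, 7 on 2L, 9 on 2R, 7 on 3L and 11 on 3R. In shares this was 19.0%, 16.7%, 21.4%, 16.7% and 26.2%, against 20.3%, 17.9%, 18.9%, 17.5% and 25.2% of all CG genes at that level. Their exons cover a median of 1666 bp, from 438 bp in CG14036 to 12189 bp in CG43102, against 1874 bp in the 1948 CG genes at that level with an annotation. The longest annotated protein had a median of 418 residues, against 420. It was under 200 residues in 6 genes (CG14545, CG12984, CG14036, CG15362, CG42299 and CG42566) and over 1000 in 4 (CG43689, CG12851, CG43102 and CG7457). A single exon was annotated for 3 genes (7.14%), against 9.60%. The 42 genes thus had lengths and exon numbers near those of CG genes at large, and no test was made.

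None of the 42 was a direct neighbour of another. A neighbour was the closest gene on each side that had values and did not overlap the CG gene. Overlapping genes were thus passed over, here and in the pairs below. Of the 84 neighbours of the 42 on the left or right, 56 had at least 10 CPM in no HS. Of the 56, 1 met the rule, the zinc finger gene zld beside CG12702. This is 1.79% of the 56, against 3.09% of all features at that level. zld was at 216 CPM without heat shock and 187.5, 187.7, 124.4 and 112.2 CPM at 8, 16, 24 and 32 h PHS. Genes that are transcribed away from each other with nearby start sites were looked at in more detail, since they can share a stretch of upstream DNA. For 24 of the 42 such a neighbour started within 1000 bp, at 40 to 923 bp. The share of other genes with such a neighbour is not given here. Of these 24 neighbours, 19 had at least 10 CPM in no HS. None of the 19 met the rule, a count near that background of 3.09%. At 24 h PHS they stood at 63.5% to 140.7% of no HS, with a median of 101.3%, where the 19 CG genes beside them stood, by the rule that chose them, at 21.5% to 64.6% with a median of 41.1%.
CG5757 and CG5098 start 40 bp apart, and CG5098 was at 180.5 CPM in no HS and 176.8 at 24 h. Beside CG13690 lies RpLP1, which encodes a ribosomal stalk protein and was at 2450 CPM in no HS and 2346 at 24 h. Nup188, a gene of the nuclear pore 70 bp from the start of CG13148, was at 115.3 and 116.8 CPM. In these pairs the CG gene was low at 24 h and its neighbour was not. The neighbours under 80% at 24 h were 3. They were Fas1, a cell adhesion gene beside CG14905, at 63.5%, CG15356 beside CG15362 at 70.8%, and His3.3A, a gene of the replacement histone H3.3 whose start lies 42 bp from that of CG14036, at 74.6%. In 18 of the 19 pairs the neighbour was the more abundant gene in no HS by CPM.

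**Figure D4:**
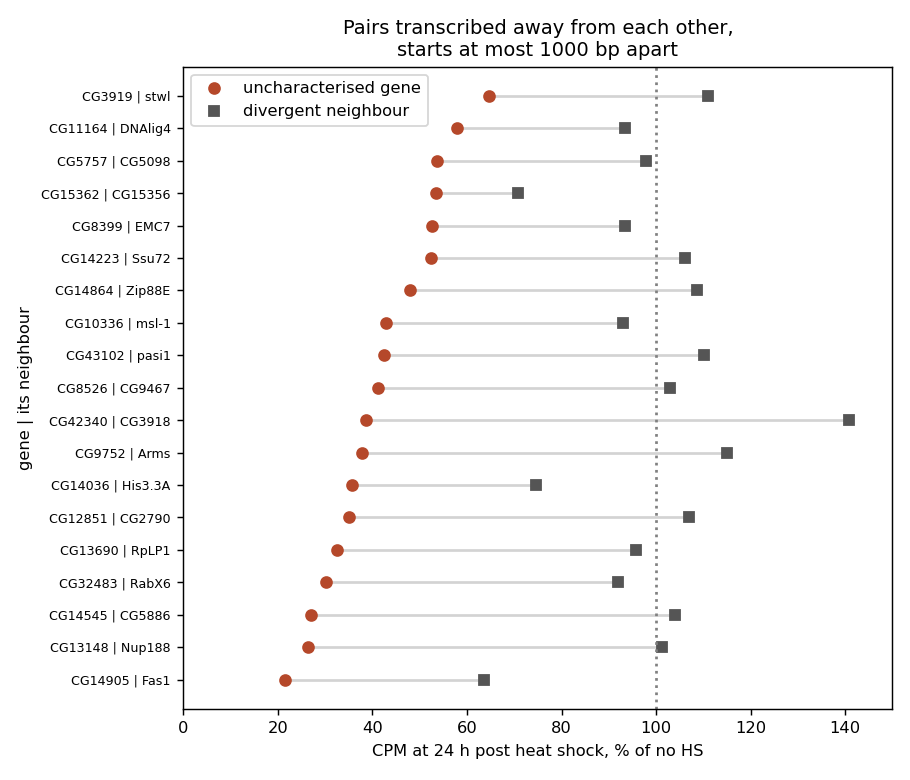
Level at 24 h post heat shock as % of no HS (x axis) for 19 of the CG genes (circles) and for the neighbour transcribed in the opposite direction from a start at most 1000 bp away (squares), with 1 pair per row. The CG genes lie at 21.5% to 64.6% and their neighbours at 63.5% to 140.7%, and 16 of the 19 neighbours are at 80% or more.

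Exons of 14 of the 42 genes overlap those of a gene on the other strand. The overlap is under 1% of their bases in 5 of them and more than 10% in CG7208, CG4860, CG12984, CG6293 and CG7457. The share of other genes with such an overlap is not given here. The strand setting of the authors' count is not given in the sources used here, so that reads in the shared bases cannot be told apart. In CG7457 the partner Mcad covers 21.4% of the exonic bases but was at or under 1.17 CPM in every library. None of the 42 shares exonic bases with a gene on its own strand.

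Near the limits of the rule the choice turned on small differences. Just inside the 1.5-fold line were CG3919 at 1.51-fold, CG11983 at 1.54-fold and CG10939 at 1.56-fold, and just outside were CG5199 at 1.47-fold, CG9839 at 1.47-fold and CG2199 at 1.45-fold. CG11983 was at 10.9 (no HS), 13.7 (8 h), 8.92 (16 h), 6.72 (24 h) and 5.62 CPM (32 h). CG5199 was at 42.7 CPM without heat shock and 48.2, 42.8, 28.7 and 26.1 CPM at 8, 16, 24 and 32 h PHS. By level the lowest inside were CG4594, CG11983 and CG12984, and CG4594 was at 10.2 CPM without heat shock and 9.44, 7.02, 5.32 and 4.69 CPM at 8, 16, 24 and 32 h PHS. The highest left out were CG12708 at 9.44 CPM, CG13771 at 8.86 CPM and CG14015 at 8.37 CPM in no HS. In 10 of the 42 the counting interval of the 2 libraries that decided the rule reached past the 1.5-fold line.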

How the data were processed

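Per the submitters' notes, reads were trimmed (Trim Galore 0.4.3), aligned to BDGP6.46 with STAR 2.5.3, filtered for proper pairs and a mapping quality of at least 10 (SAMtools 1.4.1) and counted per gene with featureCounts (Subread 1.5.0). The deposited values are log2(CPM + 1), made by the authors with edgeR 3.34.0 after normalization between libraries. Whether featureCounts used strand is not given in the sources used here. CPM and reads were recovered from the deposited log2 values, and 100% of values gave whole reads. All 5 columns belong to a sample, and 0 were left aside. The members and gene lists were chosen with earlier results of these data known. Values in every library were given for the genes with the largest falls, the highest levels and the extreme shares at 16 h, for those at the limits of the rule and, beyond that rule, for all other members. With 1 library per time, no model was fitted. Ratios have exact 95% Clopper-Pearson intervals, whose coverage was checked on simulated data, and levels have Poisson intervals (scipy 1.17.1). Coordinates and gene structure come from the BDGP6.54 annotation, and 14797 of 14819 gene IDs matched. Pseudocounts, scalings, filters, baselines and left-out libraries were tried as alternatives. Protein similarity and promoter motifs were not analysed here, and no sequence is printed.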

Additional observations from a re-analysis of the deposited data

How the results depend on the processing

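The number of genes that met the rule was 42. It was 34 with a pseudocount of 5 CPM and 42 with 0.1 CPM, and between 41 and 42 under the other scalings. It was 65 with no filter on low values, 51 with a filter of 5 CPM, 25 with one of 20 CPM and 15 with a 2-fold drop. Leaving out the 8 h, the 32 h or the no HS library gave 61, 52 and 63 genes. Fewer libraries then had to agree, and without no HS the 10 CPM filter was set on the 8 h library instead, so that 41 of the 42 genes were among the 63. With the 42 genes kept, the number of early falls was between 17 and 24 of 42 under all alternatives. The median share of the fall at 16 h, 50.1%, was 49.6% with a pseudocount of 0.1 CPM and 52.2% with 5 CPM. It was 52.8% with libraries scaled to one total, 49.98% with the median ratio and 47.4% with the upper quartile. With no HS alone as the baseline it was 53.2%, and with 8 h alone 47.5%. Which side of 50% the median lies on thus depends on the setting. Of 210 falls of single genes that were recomputed, 198 moved by at most 50% of the width of their counting interval. The other 12 moved by more, all with a pseudocount of 5 CPM, and 0 changed direction. No paired analysis was possible because there was 1 library per time point. The single libraries, of which no HS was the shallowest, limit every value here.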
